A study of Mus musculus with 6 samples.

Results

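Pro-B cells sorted from the fetal liver gave 3 of the 6 arrays of the series, and each array carried probes for 567 mouse microRNAs (miRNAs). They were chosen by their labels, and every probe of a mouse miRNA that was not a control spot was read, which came to 1672 probes. The cells were the Fr. B/C fraction, an early B lineage gate, of BALB/c embryos at day 16 of gestation. Each sort pooled the livers of 1 litter, 8 embryos on average, and there were 3 separate sorts, numbered replicates 1, 2 and 3. The other 3 arrays were of the same fraction sorted from adult bone marrow of 3 female BALB/c mice each. They belong to the study and no test is made against them, but their values for a viral miRNA are given near the end. All mice were of 1 strain with no transgene, deletion or treatment named in the labels. Total RNA was labelled with the dye Cy3 and hybridised to one-colour Agilent miRNA arrays. The study asked how Lin28b, through the transcription factor Arid3a, promotes B cell formation in the fetus, as the series' title states.

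A miRNA is cut from a hairpin precursor, and either arm of that hairpin can be kept in an Argonaute protein, where bases 2 to 8, the seed, pair with target messages. MiRNAs with the same seed have largely the same predicted targets and are counted as a family. In the B lineage the miR-17 to miR-92a cluster is needed, in mice, for pro-B cells to survive and become pre-B cells, and the let-7 family is the group of miRNAs whose maturation Lin28b blocks.

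The mature sequences of the leading families show the seeds by which their signals are summed below. They are given 5′ to 3′ from RefSeq (GRCm38.p6), with the seed in capitals and the chromosomes that the same source lists, which may leave out a copy. The family with the brightest summed signal that had a sequence was that of miR-92a and miR-25.
miR-92a (chromosomes 14 and X): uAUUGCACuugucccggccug
miR-25 (chromosome 5): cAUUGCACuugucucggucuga
miR-363 (chromosome X): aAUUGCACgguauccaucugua
The miR-17 family was spread over 3 clusters of related hairpins, and its members differ from each other by 1 to 5 bases.
miR-20a (chromosome 14): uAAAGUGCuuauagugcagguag
miR-20b (chromosome X): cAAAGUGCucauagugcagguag
miR-17 (chromosome 14): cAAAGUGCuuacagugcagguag
miR-93 (chromosome 5): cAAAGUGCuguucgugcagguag
miR-106b (chromosome 5): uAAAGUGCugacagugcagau
The miR-19 pair comes from the same cluster and differs by 1 base of 23.
miR-19b (chromosomes 14 and X): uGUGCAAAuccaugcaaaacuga
miR-19a (chromosome 14): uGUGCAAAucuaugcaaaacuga
The miR-15 family members differ more outside the seed, by 8 of 22 bases between miR-15b and miR-16 and by 4 between miR-15b and miR-15a.
miR-15b (chromosome 3): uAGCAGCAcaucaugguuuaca
miR-16 (chromosomes 14 and 3): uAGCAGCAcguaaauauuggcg
miR-15a (chromosome 14): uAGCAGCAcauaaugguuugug
Of the let-7 family the 4 members measured on all 3 arrays are shown.
let-7a (chromosome 13): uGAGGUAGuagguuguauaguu
let-7f (chromosomes 13 and X): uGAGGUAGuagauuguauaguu
let-7g (chromosome 9): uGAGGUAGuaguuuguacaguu
let-7d (chromosome 13): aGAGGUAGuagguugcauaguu
Others among the 20 brightest were these.
miR-139-5p (chromosome 7): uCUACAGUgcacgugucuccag
miR-23a (chromosome 8): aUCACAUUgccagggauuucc
miR-342-3p (chromosome 12): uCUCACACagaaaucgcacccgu
miR-1224 (chromosome 16): gUGAGGACuggggagguggag
Of the 567 miRNAs, 314 were matched to a RefSeq mature sequence.

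Levels are the scanner software's processed signal, an intensity after background subtraction that can be negative, averaged over the spots of a probe. Each miRNA is represented by its brightest probe. A share is that signal as a percent of the summed signal of all mouse miRNAs on the same array, with negative values at 0. Ranks and shares are of signal and not of molecules, since probe brightness also depends on the probe, and near-identical miRNAs may bind each other's probes; neither was tested. A second probe of the same miRNA gave a median of 41.0% of the signal of the first over the 53 miRNAs measured on all 3 arrays, with a range of 9.11% to 99.1%. The number of arrays, 3, limits the precision, and fewer cells of a type and less RNA per cell cannot be told apart. No saturated spot was found on any of the 3 arrays.

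The arrays differed in background. Before background subtraction, negative control spots averaged 53.3, 117 and 52.7 on replicates 1, 2 and 3. The background subtracted averaged 51.9, 105 and 50.8 over the mouse spots. After subtraction, negative control spots averaged 1.32 ± 2.54, 12.7 ± 10.3 and 1.95 ± 2.57 (SD over spots). On replicate 2 this remaining excess held over the whole array, with means of 9.73 to 15.5 in the parts into which its spots were divided by row. The lowest signal well above background, by the scanner software's flag in more than 50% of a probe's spots, was 13.5, 60.3 and 14.3 on replicates 1, 2 and 3. The summed mouse miRNA signal was 29346, 25764 and 39719. Negative signals, set to 0 in the shares, were found for 165, 340 and 230 miRNAs. MiRNAs not well above background held 3.09%, 12.1% and 2.39% of the summed signal. The total behind the shares of replicate 2 thus holds more signal near background, and its effect on them was not tested. Replicate 2 had the highest limit and the lowest sum, and results are given with and without it where they rest on it.

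The signal of fetal liver pro-B cells was concentrated in few miRNAs. The 10 brightest on each array held 58.7%, 61.0% and 57.4% of the signal on replicates 1, 2 and 3, with a mean of 59.0% ± 1.81 (SD, n = 3). The mean was 38.2% in the authors' deposited table and 27.9% after a normexp background correction with an offset of 50. The brightest 50 held 86.6%, 86.7% and 89.8%. Between 6 and 7 miRNAs made up 50% of the signal, and between 51 and 69 made up 90%. The plot of cumulative share shows the 3 curves running close together.

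**Figure D1:**
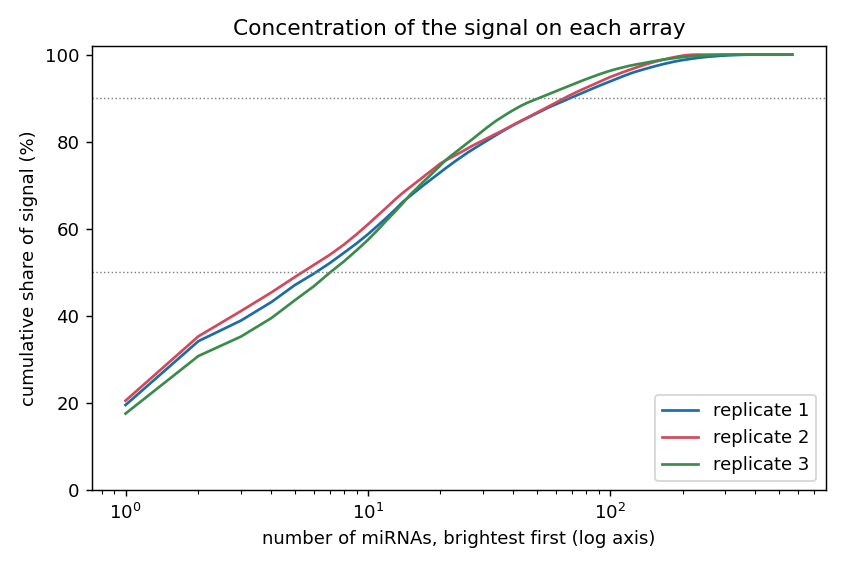
Cumulative share of the mouse miRNA signal (percent, vertical) against the number of miRNAs taken, brightest first (log axis, horizontal), with 1 line per array and dotted lines at 50% and 90%. The 10 brightest held 57.4% to 61.0%, and 90% was reached with 69, 65 and 51 miRNAs on replicates 1, 2 and 3.

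The same names led on every array. Among the 20 brightest of each array, 18 miRNAs were shared by all 3, and 8 were in every top 10. These 8 were miR-720, miR-92a, miR-139-5p, miR-709, miR-15b, miR-23a, miR-20a and miR-19b. The order within the 20 was less fixed. Of the 19 neighbouring pairs in the order of median rank, 4 had the same order on all 3 arrays and 15 did not. MiR-720 stood above miR-92a, miR-92a above miR-139-5p, miR-15b above miR-23a and miR-20b above miR-451 on every array.

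MiR-720 was the brightest probe on each array, at signals of 5739, 5296 and 6990, or 19.2% ± 1.5 of the total (SD, n = 3). Its name was later withdrawn from the miRNA catalogue because the sequence is that of a transfer RNA fragment. MiR-92a was next on each array at 4305, 3808 and 5251, or 14.2% ± 0.87. These 2 stood apart from the rest, since no other miRNA was above 5.81% on any array.

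MiR-139-5p had signals of 1390, 1094 and 1257. MiR-709 had signals of 1239, 1498 and 1290, highest on replicate 2. MiR-15b, which with miR-16 is known to restrain cell cycle genes and Bcl2, had 1144, 911 and 1623 and was ranked 5 on all 3 arrays. MiR-23a, known in mice to oppose B cell formation when raised in blood progenitors, had 779, 607 and 925. These 4 held between 2.33% and 5.81% each on every array.

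Members of the miR-17 to miR-92a cluster came next, and were highest on replicate 3. MiR-20a had 621, 600 and 1676. MiR-19b had 599, 572 and 1776. The share of miR-20a was 4.22% on replicate 3, against 2.12% and 2.33% on replicates 1 and 2, so that its rank was 9, 8 and 4. MiR-1224 went the other way, with 690, 598 and 504 and a rank of 8, 9 and 19.

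Let-7a had 721, 537 and 770. Let-7f had 594, 491 and 799. Both were among the 20 brightest of every array. MiR-21, which targets the tumour suppressor Pdcd4, had 555, 464 and 1018. MiR-714 had 536, 725 and 476, with its highest value on replicate 2 and its lowest on replicate 3. MiR-16 had 526, 400 and 894. MiR-142-3p, made mainly in blood cells, had 388, 273 and 995. Of these 6, only miR-714 was brightest on replicate 2 before scaling.

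MiR-20b had 350, 330 and 924. MiR-451, the red cell miRNA that is matured by Ago2 without Dicer, had 289, 314 and 774. MiR-25 had 312, 297 and 592. Before scaling these 3 were all brightest on replicate 3, the array with the largest summed signal, where they were ranked 11, 14 and 16. After scaling they were 0.70, 0.72 and 0.22 (log2) higher on replicate 3 than on replicate 1. Of the miRNAs measured on all 3 arrays, 20 were higher and 33 lower in that comparison. MiR-342-3p had 368, 272 and 313. MiR-93 had 266, 244 and 580. They were ranked 16, 19 and 24, and 21, 20 and 17, on replicates 1, 2 and 3, and so moved across the edge of the top 20 in opposite ways.

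**Figure D2:**
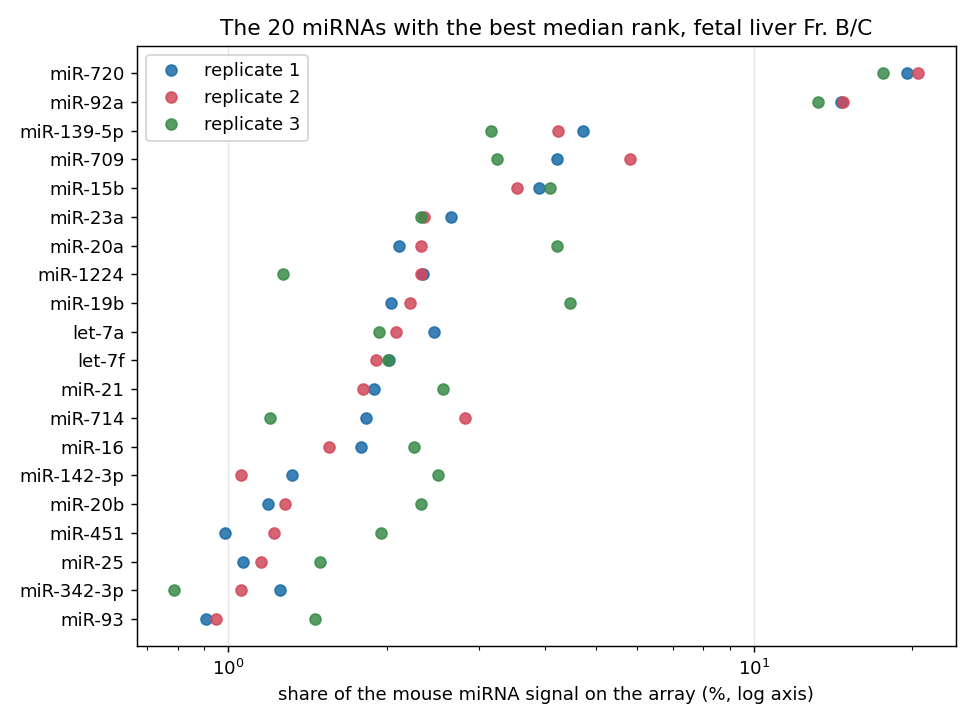
Share of the mouse miRNA signal (percent, log axis, horizontal) of the 20 miRNAs with the best median rank, with 1 point per array. MiR-720 and miR-92a stand apart at 13.2% to 20.6%, and replicate 3 lies to the right for miR-20a, miR-19b, miR-142-3p, miR-20b and miR-451.

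Summed by seed, the family of miR-92a, miR-25, miR-363 and miR-92b held 15.8%, 16.1% and 14.8% of the signal, with a mean of 15.6% ± 0.65 (SD, n = 3). The mean was 9.66% in the authors' deposited table and 7.49% with normexp. MiR-92a alone made up 92.7%, 91.9% and 89.0% of it. The miR-17 family of 6 members held 5.18%, 5.30% and 9.59%, and was led by miR-20a. On replicate 3 its share was outside the values of the other arrays. The miR-15 family of 4 matched members held 6.42%, 5.57% and 7.26%. The 9 members of the let-7 family held 5.81%, 4.69% and 5.17%, of which let-7a made up 42.3%, 44.5% and 37.5%. The miR-19 pair held 2.5%, 2.67% and 5.75%, again with replicate 3 apart.

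MiR-720, miR-709 and miR-21, for which no seed was assigned, each stood alone at 19.2% ± 1.5, 4.43% ± 1.29 and 2.09% ± 0.42. Among the matched sequences, miR-139-5p at 4.05% ± 0.80 and miR-23a at 2.45% ± 0.18 were also the sole members of their groups. MiR-23b, known to share the seed of miR-23a, was not matched and is counted by itself, at 0.648%, 0.583% and 0.681%. Other unmatched miRNAs, among them miR-195, miR-30b, miR-30d and miR-301b, also stand alone whatever their seed. A family sum covers matched members only and can be too low. The 10 brightest families together held 68.8%, 69.1% and 71.5% on the 3 arrays.

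**Figure D3:**
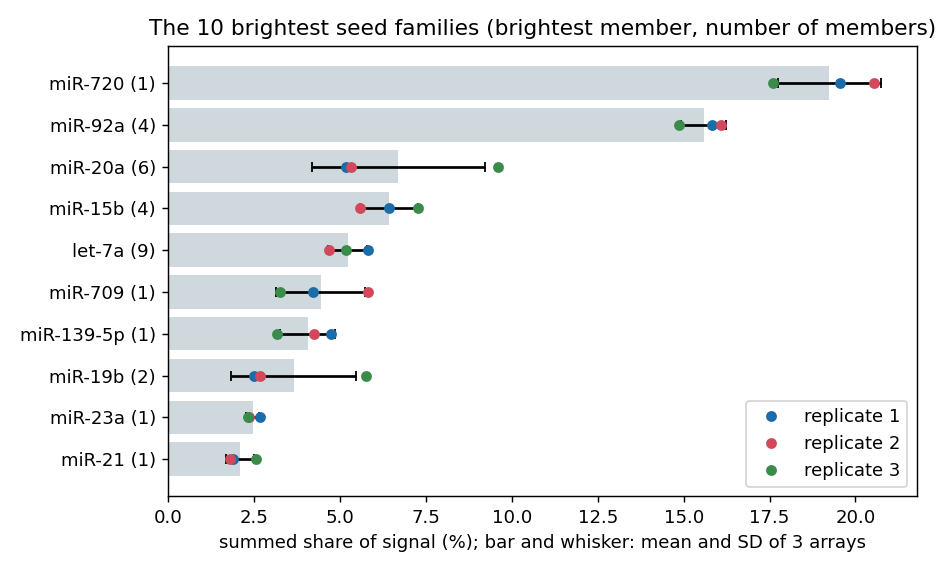
Summed share of the signal (percent, horizontal) of the 10 brightest seed families, named by their brightest member with the number of members. Bars and whiskers are the mean and SD of 3 arrays, and points are the arrays; replicate 3 stands apart for the families of miR-20a (9.59%) and miR-19b (5.75%).

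Within the let-7 family the members were unequal. Let-7g had 120, 78.8 and 213, and let-7d had 101, 70.2 and 126, all well above background. Let-7c had 73.6, 12.9 and 34.6, and let-7i had 40.3, 16.8 and 73.6, and replicate 2 fell short for both. Let-7b had 25.3, -2.18 and 13.7 and was well above background on replicate 1 alone. Let-7a and let-7c differ by 1 base of 22, as do let-7a and let-7f, and shared binding was not tested.

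Within the miR-17 family, miR-17 itself was dim, at 26.0, 8.83 and 82.2, beside miR-20a at 621, 600 and 1676. MiR-106a had 25.5, 5.79 and 82.1, nearly the signal of miR-17 on replicates 1 and 3, and differs from it by 1 base of 23. Whether their probes read each other's miRNA was not tested.

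By the positions in the files (mm9), the cluster on chromosome 14 at 115442915 to 115443718, which runs from miR-17 to miR-92a, held more signal than any other group of neighbours within 10 kb. Its 10 probed arms held 20.1%, 20.6% and 24.8%, and 6 of them were well above background on all 3 arrays. MiR-92a and miR-19b also have a copy on chromosome X, and signal from the copies cannot be told apart. The let-7 cluster on chromosome 13 at 48631393 to 48633626 held 4.66% ± 0.33 through let-7a, let-7f, let-7d and 3 starred arms. Among these arms, let-7c-2* is listed by RefSeq on chromosome 15. The miR-139 hairpin on chromosome 7 at 108623901 to 108623953 held 4.19% ± 0.85. The miR-15b hairpin on chromosome 3 at 68813699 to 68813756 held 3.89% ± 0.30. The cluster of miR-25, miR-93 and miR-106b on chromosome 5 at 138606560 to 138607030 held 2.82%, 2.86% and 4.21%, the highest on replicate 3.

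Detection differed between the arrays. There were 144, 55 and 125 miRNAs well above background on replicates 1, 2 and 3, or 25.4%, 9.70% and 22.0% of the 567. The number on all 3 was 53 (9.35%), the number on at least 1 was 151 (26.6%), and 416 (73.4%) were on none. With a looser flag for a significant positive signal, 126 were on all 3. A miRNA that was not well above background on an array has only an upper bound there, and may still be made by the cells. No miRNA was found on replicate 2 alone. MiR-211, at 50.4, 63.3 and 12.9, and let-7d*, at 29.9, 75.8 and 9.56, were the 2 found on replicate 2 and on replicate 1 but not on replicate 3.

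Of the 118 miRNAs well above background on replicates 1 and 3, replicate 2 missed 65 (55.1%). They held 8.06%, 5.24% and 8.07% of the signal on replicates 1, 2 and 3. On replicate 2 the share of 40 of them was below those on both other arrays, of 16 between them and of 9 above both. The 65 were chosen for falling short on replicate 2, so low shares there are favoured by the choice, and nothing is read from these counts. What part the background of the array and the sort itself have in this was not tested. On both of those arrays 56 of the 65 had a share under 0.234%, the lowest share that was well above background on replicate 2. Another 7 were below it on one array only, and 2, miR-425 and miR-130a, were above it on both. MiR-425 had 96.8, 48.1 and 134, and miR-130a, which shares its seed with miR-130b and miR-301a, had 78.5, 30.2 and 143. For these 2 the share on replicate 2, 0.187% and 0.117%, was below both other arrays, which largely follows from how they were chosen.

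Several known B lineage and blood miRNAs were among the 65. MiR-181a, which promotes B cell formation in mouse progenitors, had 83.6, 50.2 and 76.2. MiR-142-5p, the other arm of the blood miRNA miR-142-3p, had 56.0, 16.8 and 96.6. MiR-223, a myeloid miRNA, had 70.9, 32.1 and 70.3. All 3 were clear of the limits of replicates 1 and 3 and under the 60.3 that replicate 2 needed. The other members of the 10 brightest that were missed were miR-574-5p, miR-690, miR-17*, miR-322 and let-7c. MiR-574-5p had 79.1, 54.4 and 66.9, miR-690 had 74.0, 50.8 and 63.7, and miR-322, of the miR-15 family, had 45.7, 21.7 and 81.6. MiR-17*, the other arm of miR-17, had 34.9, 32.2 and 101.

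**Figure D4:**
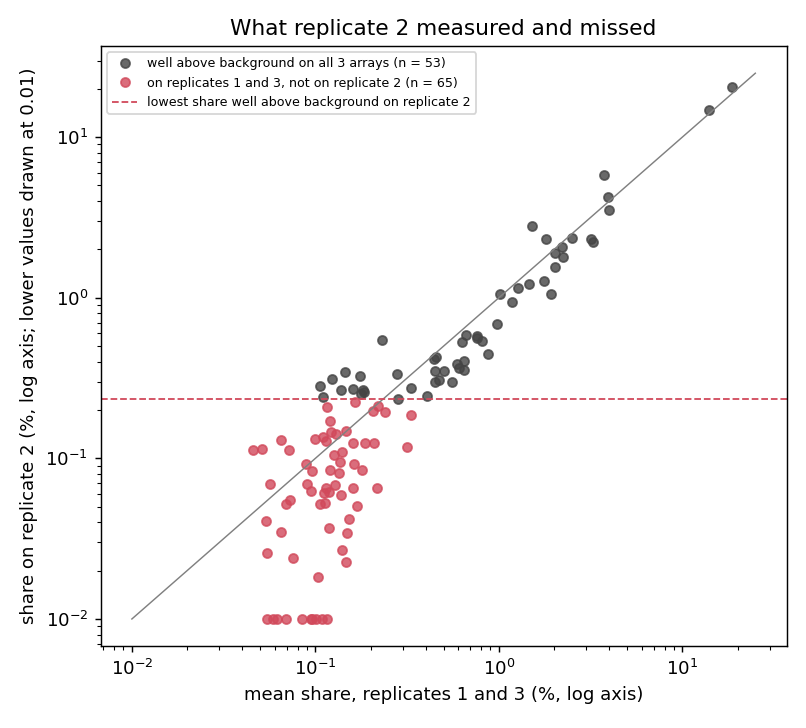
Share on replicate 2 (percent, log axis, vertical) against the mean share on replicates 1 and 3 (percent, log axis, horizontal), with 1 point per miRNA. The 65 miRNAs that only replicate 2 missed (red) lie under the dashed line at 0.234%, the lowest share well above background on that array; values under 0.01 are drawn at 0.01.

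Ranks held better over the miRNAs measured on all 3 arrays than over all 567. Over all 567 miRNAs, Spearman's rho was 0.75 between replicates 1 and 2, 0.87 between replicates 1 and 3 and 0.68 between replicates 2 and 3. Over the 53 on all 3 arrays it was 0.93, 0.93 and 0.90. Over the 118 on replicates 1 and 3 it was 0.89, 0.83 and 0.76. Between replicates 1 and 3 that was lower than over all 567, and for the other pairs of arrays higher. These are descriptions across miRNAs, which are not independent, and the points of a pair of arrays share the probes. After scaling, the median SD of a log2 level over the 3 arrays was 0.32. It was 0.17 without replicate 3, 0.56 with no scaling and 0.69 with scaling over all mouse probes.

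MiR-720, miR-92a and miR-15b had the same rank on all 3 arrays, and let-7f and miR-106b moved by 2 places. The widest moves were those of let-7b* (ranks 66, 45 and 114), miR-689 (56, 37 and 88), miR-574-3p (52, 47 and 97), miR-331-3p (85, 40 and 78) and miR-466f-3p (47, 50 and 85). Of these 5, all but miR-466f-3p had their best rank on replicate 2, the array with the raised background. Of the 53 miRNAs, 9 were more than 1 (log2, scaled) higher on replicate 2 than the mean of the other arrays, and 0 were as much lower. Both the rank moves and this split were taken over the 53, which had to pass the limit of replicate 2, the highest. Dim miRNAs that read low there were left out beforehand, so nothing is read from the split or from those best ranks. The part of the background was not tested. Between replicates 3 and 1, 2 were more than 1 (log2) higher on replicate 3, miR-19a and miR-18a, both of the miR-17 to miR-92a cluster, and 7 were as much lower.

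Arms of the same hairpin were compared on the same array, and the sequences of 2 hairpins show how the arms lie. RefSeq hairpins (GRCm38.p6) are given with both mature arms in capitals, because these were the only 2 of 164 arm pairs with both arms well above background on all 3 arrays.
Mir18 (chr14:115043851-115043946, plus strand): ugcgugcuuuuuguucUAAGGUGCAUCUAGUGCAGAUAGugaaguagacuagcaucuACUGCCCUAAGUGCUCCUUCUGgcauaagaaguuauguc
Mir130b (chr16:17124061-17124142, minus strand): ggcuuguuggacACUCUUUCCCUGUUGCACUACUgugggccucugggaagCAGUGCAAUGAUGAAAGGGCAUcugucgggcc
MiR-18a had signals of 107, 91.1 and 371, and miR-18a* had 42.2, 68.4 and 52.6. The log2 ratio of miR-18a over miR-18a* was 1.34, 0.41 and 2.82. MiR-130b had 138, 100 and 280, and miR-130b* had 33.5, 61.8 and 42.5, at log2 ratios of 2.05, 0.70 and 2.72. Both ratios were positive on every array, smallest on replicate 2 and largest on replicate 3. These 2 pairs were chosen because their dim starred arms passed the high limit of replicate 2, which favours a small ratio there.

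Of the 164 pairs, 26 had an arm well above background on all 3 arrays. In 13 of these the other arm was on no array, and in 11 it was on 1 or 2. With replicate 2 left aside, 13 pairs had both arms on replicates 1 and 3, and with the looser flag 11 pairs had both arms on all 3. Of the 20 pairs among the 26 that are named with a star, the unstarred arm was brighter on all 3 arrays in 17, the starred arm in 2 (let-7b* and miR-467a*), and the order differed between arrays in let-7d. Let-7b* had 46.2, 72.9 and 21.1, beside let-7b at 25.3, -2.18 and 13.7. MiR-467a* had 67.0, 69.0 and 53.4, and the unstarred miR-467a was on no array. Some starred pairs with both arms on replicates 1 and 3 are outside the 26, since neither arm passed on replicate 2. Their log2 ratios of the unstarred over the starred arm on replicates 1 and 3 were these. They were -0.42 and -0.30 for miR-17 and -0.18 and -0.51 for miR-140. For miR-30e they were 1.45 and 1.69, and for miR-467b -0.14 and 1.65.

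Several pairs were uneven. MiR-92a was at least 318-fold, 63.2-fold and 366-fold above its starred arm on replicates 1, 2 and 3, each bound set by the lowest signal well above background on that array, so that it follows the brightness of miR-92a. By the same bound miR-21 was at least 41.1-fold, 7.69-fold and 71.0-fold above miR-21*, and miR-16 at least 38.9-fold, 6.63-fold and 62.4-fold above miR-16*. Let-7f was above let-7f* by 5.24 (log2) on replicate 1. MiR-15b was above miR-15b* by 6.33 and 6.08 (log2) on replicates 1 and 3, and miR-20a above miR-20a* by 5.51 and 5.53. MiR-139-5p was above miR-139-3p by 4.89 and 5.28. In the pairs named by arm, the 3p arm led for miR-142 and miR-342, at log2 ratios of 5p over 3p of -2.80 and -3.37, and of -2.81 and -3.06. For miR-574 the same ratio was 0.17 and 1.07 on replicates 1 and 3. On replicate 2 its 3p arm was the brighter, at 69.3 against 54.4 for 5p, which was not well above background there.

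**Figure D5:**
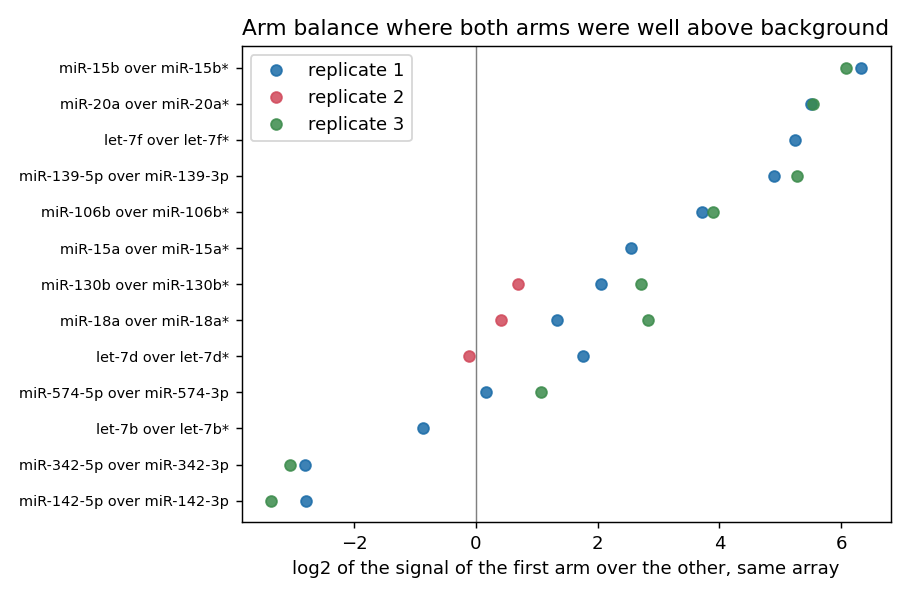
Log2 of the signal of the first named arm over the other on the same array (horizontal), for the 13 pairs with 1 arm on all 3 arrays and both arms well above background on replicate 1 or 3, with 1 point for each array on which both were. Of these, 9 were above 0 on every array drawn, and the pairs of miR-142 and miR-342 lie furthest below 0.

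MiR-451, miR-714, miR-18a and let-7a, the markers given with this group of arrays, were well above background on all 3 arrays. Their detection does not identify the cells, and miR-451 is a red cell miRNA. Other marker miRNAs were read from lists. Over all 567 miRNAs, 26.6% were well above background on at least 1 array, 9.35% on all 3 and 73.4% on none, and the counts of these short lists stand beside those shares. All 7 blood and lymphoid miRNAs were well above background on at least 1 array and 4 on all 3, namely miR-142-3p, miR-155, miR-181b and miR-34a. MiR-181b, of the seed family of miR-181a, had 82.3, 85.9 and 109. MiR-155 had 137, 89.7 and 169, and miR-34a, which in mice holds back the step to pre-B cells when raised, had 213, 77.2 and 151. MiR-150, which targets Myb and is high in mature lymphocytes, had 49.7, 14.6 and 9.75 and was on replicate 1 alone. Of the red cell list, miR-451 was on all 3 arrays, miR-486 on replicates 1 and 3 with 38.7, 34.1 and 26.3, and miR-144, a neighbour of miR-451, on none. The red cell list summed to 1.14%, 1.35% and 2.04% of the signal.

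Lists this short can hold no miRNA on all 3 arrays at the share of 9.35% alone, and nothing is read from that. Of 4 myeloid miRNAs, 3 were on at least 1 array and none on all 3, with a sum of 0.361%, 0.275% and 0.196%. Besides miR-223, these were miR-146a at 14.3, -20.0 and -0.32 and miR-511 at 15.9, 38.8 and 3.56, each on replicate 1 alone. Of 4 liver cell miRNAs on the array, 2 were on at least 1 array and none on all 3, with a sum of 0.171%, 0 and 0.182%. MiR-148a had 23.7, -7.38 and 59.6, on replicates 1 and 3. MiR-122, which defines liver cells, had 20.5, -18.3 and 6.83 and passed on replicate 1 alone. MiR-126-3p, of endothelial cells and blood stem cells, had 17.7, 1.21 and 50.8, and the other 6 of its list were on no array. By their listed names, 7 stromal and muscle, 2 neural and 5 pluripotent cell miRNAs were on the array. None of these was well above background on any array, where 73.4% of all miRNAs were on none. The neural list also names miR-128a, which the array does not carry under that name. The array's miR-128 was well above background on all 3 arrays, with 0.951%, 0.561% and 0.573% of the signal. The part of red cell, myeloid or liver cell RNA in the other values was not tested. The arrays hold no messenger RNA, so the sorted gate itself was not checked against protein markers.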

How the data were processed

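Agilent Feature Extraction 9.5.3.1 turned the scans into spot intensity, subtracting a background on each array, per the file headers. Flags of 0 or 1 per spot are other values set by the same software, per the file headers. A log2 table deposited by the authors served as an alternative; no source used here gives its background correction. Spots marked as outliers were left out of a probe's mean, and the brightest probe stood for a miRNA. For log2 levels, signals were divided by the array's 75th percentile over 82 probes that passed the background flag on all 3 arrays, and a floor of 4.08 (log2) was set. Sequences were matched by name: 139 by the same name, 113 through a hand-written table of arms and 62 as the other arm. In 133 cases genome order or spacing could check the arm. In each of these a check fitted, but where several were possible not all had to. Another 42 could not be checked. No test was run, since 1 group was described.

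Members and lists were chosen with earlier results of these data known. Named were the 20 best median ranks, the 10 brightest families, the 10 brightest missed by replicate 2, those found on replicate 2 and not on both others, the 5 widest and 5 narrowest rank ranges, the members of the 5 brightest clusters, and the most even and uneven arm pairs. Computation used Python 3.11.15, pandas 2.3.3, R 4.3.3 and limma 3.58.1 (normexp), and was tested on simulated spots. In that test replicate 3 missed a first limit on the error of a share. The limit was then replaced, after this was seen, by one set from the simulated spot noise. The simulated noise had no raised mean on replicate 2, so the raised negative controls of that array were not covered.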

Additional observations from a re-analysis of the deposited data

Results flagged for a closer look

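A probe outside the mouse set gave signal. The miRNA mghv-miR-M1-2 of a mouse herpesvirus was well above background on fetal liver replicates 1 and 3, at 22.9 and 19.5 (its brightest probe; 4 and 1 of its 4 probes passed), and not on replicate 2 at 37.2. On the bone marrow arrays it had 23.0, 21.7 and 20.5, well above background on all 3. The lowest signals of a mouse miRNA well above background were 13.5 and 14.3 on fetal liver replicates 1 and 3. What the probe bound was not tested.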

How the results depend on the processing

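The count of miRNAs that only replicate 2 missed stayed between 62 and 84 in its 5 alternatives. The 53 miRNAs on all 3 arrays became 126 with the looser flag for a significant positive signal, and 53 to 118 when 1 array was left out, the highest without replicate 2. The pairs with both arms on all 3 arrays went from 2 to 1 when all spots had to pass, 4 when 1 spot was enough, 11 with the looser flag, 4 with the software's own call per miRNA, and 2 to 13 with 1 array left out, the highest without replicate 2. The share of the 10 brightest, 59.0%, was 57.1% with the mean of all probes, 57.1% with the software's total signal per miRNA, 62.9% over detected miRNAs only, 38.2% in the authors' deposited table and 27.9% with normexp, whose offset of 50 adds to every probe. The miR-92a family, 15.6%, was 16.5% over detected miRNAs only, 9.66% in the deposited table and 7.49% with normexp. With miR-720 left out, a choice made after seeing the data, they were 51.9% and 19.3%. With 1 array left out they ranged from 57.9% to 59.8% and from 15.3% to 16.0%. The lowest rank correlation, 0.68, was 0.90 over the 53 miRNAs, and 0.69 to 0.87 with 1 array left out, the highest without replicate 2. The median SD, 0.32, was 0.56 with no scaling, 0.69 with the percentile over all mouse probes, and 0.17 to 0.38 with 1 array left out, the lowest without replicate 3. Where no construction is named, the cause was not tested. With an array left out, the brightest probe was chosen again. No paired analysis was possible because no result comes from a test. Dim miRNAs are limited by signal over background, most on replicate 2.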
